A study of Homo sapiens with 17 samples.

Results

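The regions described here are CREB1 binding sites that were listed in LNCaP-abl cells but not in LNCaP cells and that coincided with FOXA1 in LNCaP-abl. LNCaP is an androgen-dependent human prostate cancer line, and LNCaP-abl (abl below) is a line derived from it that grows without androgen. Chromatin immunoprecipitation with sequencing (ChIP-seq) gave 1 peak list for CREB1 in abl, 1 for FOXA1 in abl and 1 for CREB1 in LNCaP, with positions on hg19. A site was taken when its abl CREB1 peak shared 1 bp or more with an abl FOXA1 peak and no bp with any LNCaP CREB1 peak. This rule found 5407 sites, or 19.6% of the 27629 abl CREB1 peaks.

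The abl cells stood at passages 62 to 64 and were grown in 10% charcoal-stripped serum, which is low in steroid hormones. LNCaP cells stood at passages 32 to 34 and were grown in 10% serum that was not stripped. Line, passage and growth medium therefore cannot be told apart in any comparison of abl with LNCaP. The labels give 5% charcoal-stripped serum for both lines during treatments. No siRNA is named for the 3 ChIP-seq samples, so which of the media they were in at harvest is not given in the sources used here, and ChIP-seq after knockdown was not analysed here. RNA sequencing came from the same lines after 3 days with 40 nM of an siRNA against CREB1 (siCREB1), against FOXA1 (siFoxA1) or of a control siRNA (siControl), in 5% charcoal-stripped serum, with 2 libraries in each of 6 groups.

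CREB1 is a leucine-zipper factor that binds the cyclic-AMP response element, mostly near gene starts, and recruits the acetyltransferases CBP and p300 once phosphorylated. FOXA1 is a winged-helix pioneer factor that can bind its site in closed chromatin and opens enhancers of luminal prostate cells, where it also guides the androgen receptor. A CREB1 peak at a FOXA1 peak can reflect direct CREB1 contact with DNA or contact through other proteins, and a peak list does not separate these.

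The peaks were chosen by their presence or absence in the lists, so scores, overlaps and the classes themselves are given as descriptions with no test. With 1 list for each antibody and line there is no replicate, and shares carry exact (Clopper-Pearson) 95% intervals that cover counting error only. The score is the authors' own value for each peak, and it was used only within 1 list. Sequencing depth of the ChIP-seq libraries is unknown, and a peak that is missing from the LNCaP list was not detected there rather than shown to be absent. FOXA1 binding in LNCaP was not analysed here.

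Sites listed only in abl coincided with FOXA1 more often than sites found in both lines. Among the 9196 CREB1 peaks listed only in abl, 58.8% (interval 57.8% to 59.8%) shared sequence with a FOXA1 peak. Among the 18433 CREB1 peaks that were shared with LNCaP, 42.2% did (41.5% to 42.9%). Taken over all abl CREB1 peaks the share was 47.7%. The reverse set, 3391 CREB1 peaks listed only in LNCaP, overlapped an abl FOXA1 peak in 43.1% of cases (41.4% to 44.7%). This was close to the 41.5% of all 21991 LNCaP peaks. Here the FOXA1 list came from the other line, so 43.1% and 58.8% are not like measures. LNCaP-only peaks were also weak within the LNCaP list, with a median score of 101, against 200 over all its peaks.

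CREB1 peaks at these sites were weak by the authors' score. The score ran from 80 to 1378 with a median of 111 and quartiles of 93.1 and 144, where 80 is also the lowest score in the whole list. Of the 5407 sites, 36.2% scored under 100 and 78.4% under 150, and only 70 (1.29%) reached 300. Abl-only sites without FOXA1 had the same median of 111, with quartiles of 91.9 and 146. Shared sites stood much higher, with a median of 267 where FOXA1 was present and 425 where it was not. The abl-only sites with FOXA1 were also narrow, with a median CREB1 width of 536 bp, against 504 bp for abl-only sites without FOXA1, 678 bp for shared sites with FOXA1 and 777 bp for shared sites without it. At CREB1 scores under 150 the median width was 517 bp at abl-only sites and 525 bp at shared sites with FOXA1.

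**Figure D1:**
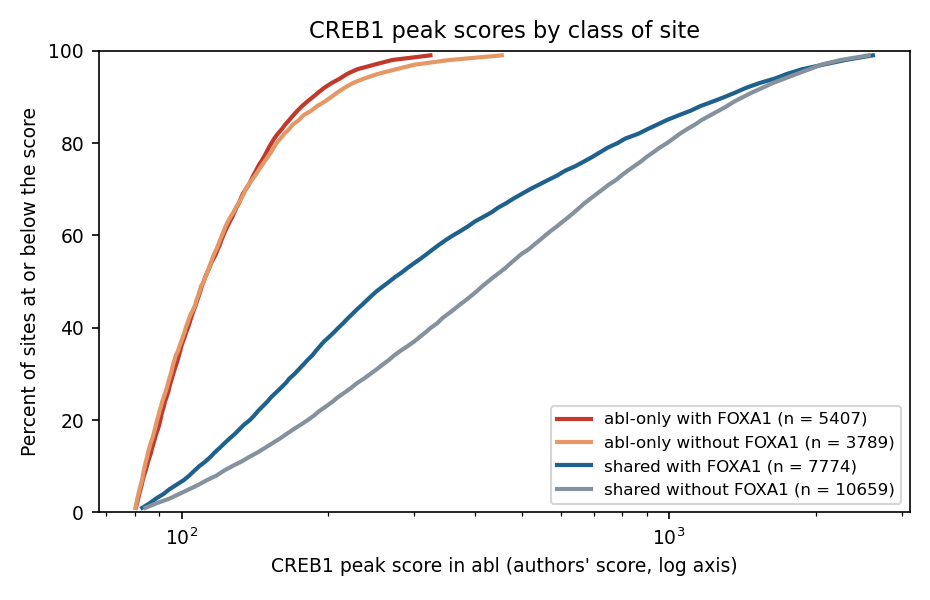
Percent of abl CREB1 sites (vertical axis) at or below each CREB1 score (horizontal log axis, authors' score), with 1 line for each of the 4 classes of site. Both abl-only classes lie together at low scores with a median of 111, far to the left of the shared classes with medians of 267 and 425.

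How often a peak was listed only in abl depended steeply on its score. Of CREB1 peaks with FOXA1 that scored from 80 to 100, 78.8% were listed only in abl (77.1% to 80.4%), against 75.8% of those without FOXA1 (73.8% to 77.8%). In the band from 150 to 200 the shares were 41.6% with FOXA1 (39.3% to 43.9%) and 32.7% without it (30.3% to 35.2%). From 500 to 1000 they were 0.71% with FOXA1 and 0.73% without it. Within bands up to 300 the abl-only share was thus some points higher at FOXA1 peaks, a smaller gap than the spread of shares between bands. The number of abl-only sites with FOXA1 was 6484 when LNCaP peaks needed a score of 100 or more, and 4295 when peaks of both lines did.

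The share of CREB1 peaks with FOXA1 also followed the score in both classes. At scores from 80 to 100, 58.1% of abl-only peaks (56.4% to 59.8%) and 53.9% of shared peaks (50.8% to 57.1%) overlapped FOXA1. From 150 to 200 the values were 62.0% for abl-only peaks (59.3% to 64.7%) and 52.7% for shared peaks (50.5% to 54.9%). From 300 to 500 they were 39.7% for abl-only peaks (31.9% to 48.0%) and 36.5% for shared peaks (34.9% to 38.2%). CREB1 peaks with scores under 200 were the ones that most often coincided with FOXA1, whether or not LNCaP had the peak. In each of the 5 bands below 500 the abl-only share exceeded the shared one by less than the 58.8% against 42.2% seen without regard to score. Above that it did not exceed it, at 32.1% of 28 abl-only peaks and 32.7% of shared peaks from 500 to 1000, and 1 of 6 abl-only peaks and 35.4% of shared peaks from 1000.

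**Figure D2:**
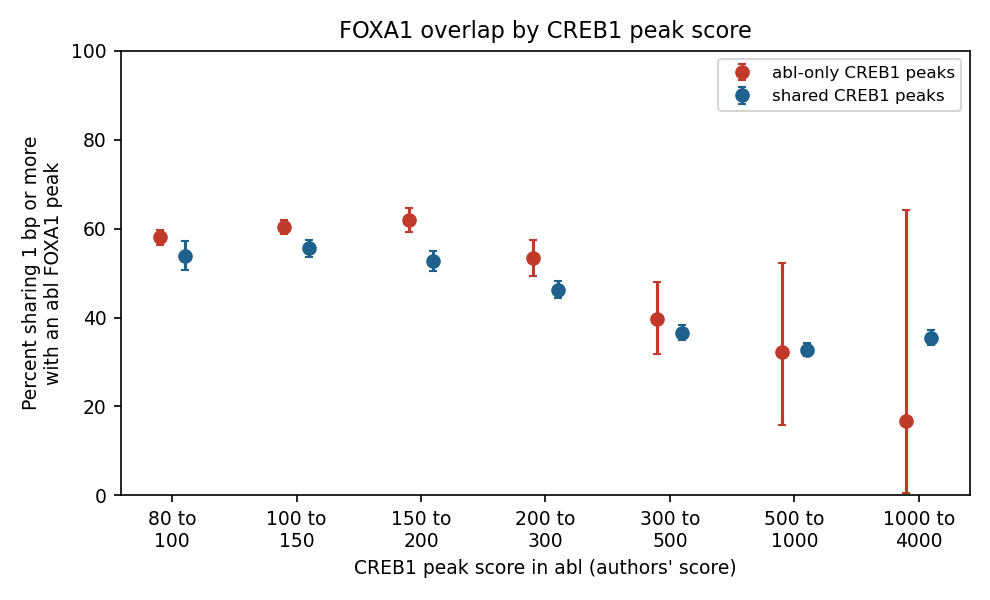
Percent of abl CREB1 peaks that share 1 bp or more with an abl FOXA1 peak, by band of CREB1 score, for abl-only peaks (red) and peaks shared with LNCaP (blue), with exact 95% intervals for counting error. Abl-only peaks stand at 58.1% and shared peaks at 53.9% in the lowest band, and both are lower in every band above 200 than in the bands below it; the bands from 500 hold 28 and 6 abl-only peaks.

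In contrast to their weak CREB1 peaks, these sites lay on strong FOXA1 peaks. The median score of the FOXA1 peak at the site was 449, with quartiles of 209 and 846, against 208 over all 79242 FOXA1 peaks. Of the sites, 75.1% (73.9% to 76.2%) lay on a FOXA1 peak above that overall median. FOXA1 peaks that met no CREB1 peak had a median of 193, and those at shared CREB1 sites 292. For the 1460 CREB1 peaks listed only in LNCaP that met an abl FOXA1 peak, the median FOXA1 score was 357. The FOXA1 peak was also wide, at a median of 736 bp, against 624 bp over all FOXA1 peaks and 689 bp at shared CREB1 sites. Wide peaks meet the 1 bp rule more easily, and the part of the rule in this width was not tested.

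A total of 5405 FOXA1 peaks, or 6.82% of all of them, met at least 1 abl-only CREB1 peak. That share grew with the FOXA1 score. In the lowest decile of FOXA1 score 2.83% met one (2.47% to 3.22%), in decile 5 4.10% did (3.67% to 4.56%) and in the highest decile 19.8% did (19.0% to 20.7%). The highest decile, with scores from 763 to 3114, held 29.3% of the sites. Shared CREB1 sites were spread differently over the same deciles, at 7.45% of FOXA1 peaks in the lowest, 7.65% in decile 5 and 22.4% in the highest (21.5% to 23.3%). Abl-only sites were thus less frequent than shared ones by more than a factor of 2 at the weak end of the FOXA1 list, and by a smaller margin in the highest decile.

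**Figure D3:**
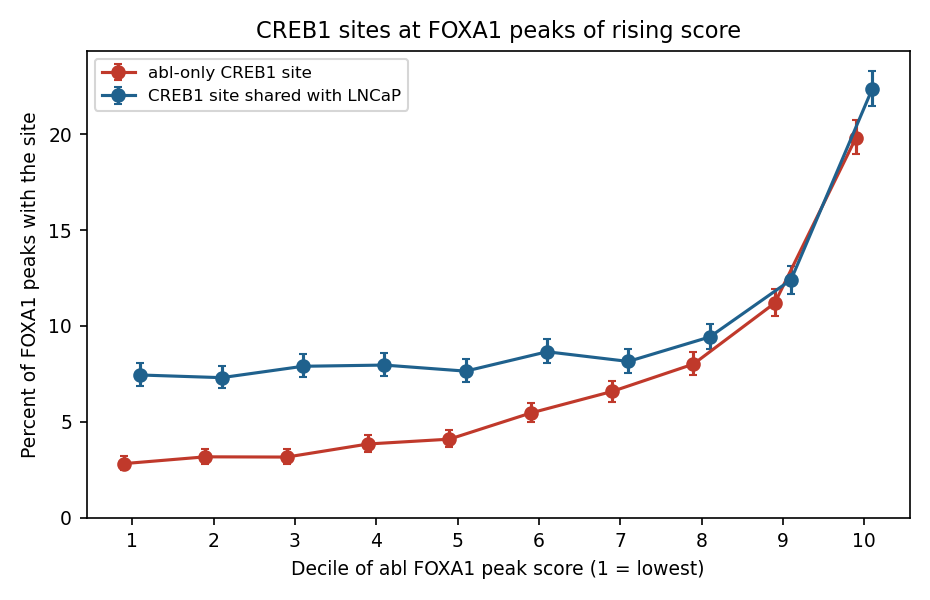
Percent of abl FOXA1 peaks that meet an abl-only CREB1 site (red) or a CREB1 site shared with LNCaP (blue), by decile of FOXA1 score from lowest (1) to highest (10), with exact 95% intervals for counting error. Abl-only sites stand at 2.83% in decile 1 and 19.8% in decile 10, whereas shared sites stay between 7.31% and 9.43% over deciles 1 to 8 and reach 22.4% in decile 10.

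Among sites with low CREB1 scores, abl-only and shared sites had FOXA1 peaks of close median score. When only sites with a CREB1 score under 150 were taken, the median FOXA1 score was 432 at 4241 abl-only sites and 429 at 1870 shared sites. In the band from 80 to 100 the medians were 417 at abl-only sites and 415 at shared sites, and from 100 to 150 they were 445 at abl-only sites and 440 at shared sites. From 200 to 300 they were 500.5 at 330 abl-only sites and 427 at 1252 shared sites, with quartiles of 214 and 938 at the abl-only sites and 185 and 955 at the shared sites. From 300 to 500 they were 368 at 60 abl-only sites and 300.1 at 1168 shared sites, with quartiles of 203 and 750.2 at the abl-only sites and 148 and 693 at the shared sites. Among shared sites the FOXA1 score was lower where the CREB1 score was higher (Spearman's rho of -0.29 across 7774 sites of the same 2 lists, a description). Among the abl-only sites the rho was 0.06 across 5407 sites, over a much narrower range of CREB1 scores.

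CREB1 and FOXA1 peaks nearly coincided at these sites. Their centres lay a median of 64.0 bp apart, with quartiles of 29.0 and 136 bp. This was not particular to abl-only sites. At the 1460 CREB1 peaks listed only in LNCaP that met an abl FOXA1 peak, the median centre distance was 60.5 bp. In 41.3% of the sites the centres were within 50 bp, in 66.1% within 100 bp and in 84.2% within 200 bp. The CREB1 peak lay wholly inside the FOXA1 peak at 62.2% of the sites, and its centre was inside at 97.1%. Of the overlaps, 97.0% covered at least 50% of the CREB1 peak. Only 19 sites touched 2 or more FOXA1 peaks, and 21 FOXA1 peaks held 2 or more of the sites.

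Shared sites with FOXA1 were looser, with a median centre distance of 86.5 bp and 32.7% of CREB1 peaks wholly inside the FOXA1 peak. This gap too was tied to the CREB1 score. At scores under 150 the median centre distance was 62.5 bp at abl-only sites and 61.5 bp at shared sites. Within the abl-only sites, the 1351 with the lowest FOXA1 scores had a median centre distance of 57.5 bp and the 1352 with the highest 69.5 bp. Their median CREB1 scores were close, at 109 for the lowest and 115 for the highest. The share of CREB1 peaks wholly inside the FOXA1 peak was 36.0% for the lowest and 81.5% for the highest. That share depends on the widths of both peaks and is not a measure of distance alone. The FOXA1 peak was wider than the CREB1 peak at 85.3% of abl-only sites and 51.4% of shared sites with FOXA1. A total of 852 sites had centres over 200 bp apart, with a median of 309 bp, and their median CREB1 score of 113 was close to the 109 of the 2234 sites within 50 bp.

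**Figure D4:**
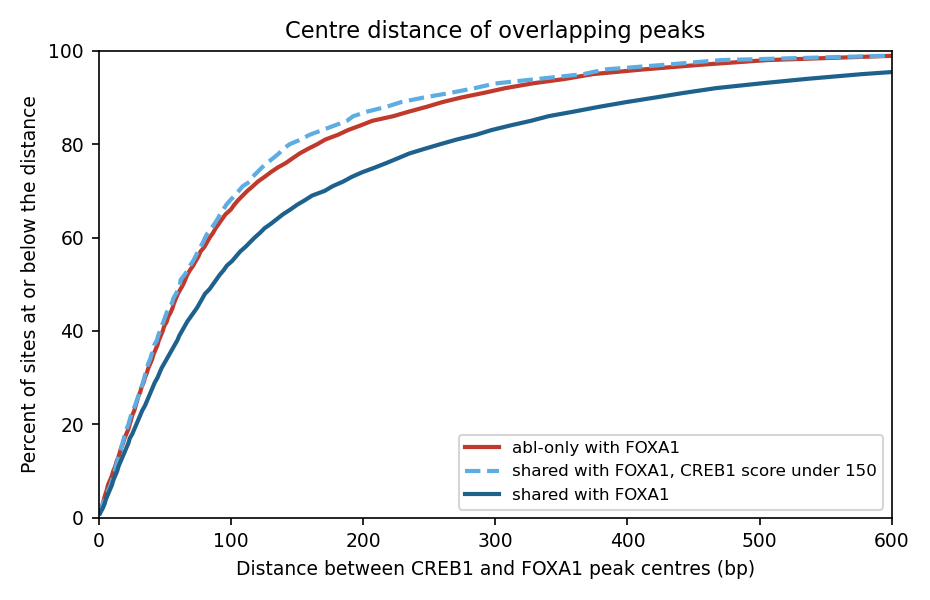
Percent of sites (vertical axis) whose CREB1 and FOXA1 peak centres are no farther apart than the distance on the horizontal axis (bp). Abl-only sites (red, median 64.0 bp) follow the shared sites with a CREB1 score under 150 (dashed, median 61.5 bp) and lie closer than all shared sites with FOXA1 (dark blue, median 86.5 bp).

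The 8 sites with the highest CREB1 scores lay on FOXA1 peaks with scores from 147 to 492. The highest, chr16:3414498-3415584, had a CREB1 score of 1378 and a width of 1087 bp, on a FOXA1 peak with a score of 163. The next was chr7:105221631-105222345, with a CREB1 score of 870 and a FOXA1 score of 182. At chr11:34534931-34535733 the CREB1 score was 689 and the FOXA1 score 228. All 3 FOXA1 scores lay well below the median of 449 for these sites. Shared sites with FOXA1 were alike in this. Their median FOXA1 score was 198 at CREB1 scores from 500 to 1000 and 159 at scores from 1000.

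On chromosome 3 the sites chr3:42306015-42306661 and chr3:61235495-61236218 scored 672 and 651 for CREB1, with FOXA1 scores of 477 and 167. The site chr6:50817930-50818649 scored 621 for CREB1 and 492 for FOXA1, and lay 659727 bp from the nearest LNCaP CREB1 peak. The last of the 8 were chr7:96745428-96746278, with scores of 621 for CREB1 and 250 for FOXA1, and chr5:14250054-14250699, with 538 and 147. Among these 8 sites, 6 had FOXA1 scores under 300, and 2 lay within 1 kb of an LNCaP CREB1 peak, at 396 bp for chr3:61235495-61236218 and 216 bp for chr7:96745428-96746278.

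At the other extreme, the site with the strongest FOXA1 peak, chr10:113339185-113340075, had a FOXA1 score of 3114 and a CREB1 score of 174. It was followed by chr20:22433006-22433958, with a FOXA1 score of 3100.0 and a CREB1 score of 162, and by chr1:98553397-98554262, with 2989 and 88.5. In all 3 the CREB1 peak lay wholly inside the FOXA1 peak. These 3 were picked for their FOXA1 scores after the values were seen.

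Sites at the edge of the rule showed how it divides neighbouring cases. The smallest overlap that counted was 2 bp at chr6:84140502-84141170, with peak centres 979 bp apart. The nearest miss was chr3:169846675-169847169, whose CREB1 peak started 2 bp from a FOXA1 peak. On the other criterion, chr12:3857343-3857789 lay 7 bp from an LNCaP CREB1 peak and was taken, whereas chr1:24828702-24829141 shared 4 bp with one and was not.

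Such near cases were few. The nearest LNCaP CREB1 peak lay a median of 35974 bp from an abl-only site with FOXA1, with quartiles of 13905 and 87384 bp. It was within 1 kb for 2.92% of them (2.49% to 3.41%), within 10 kb for 18.5% and within 50 kb for 59.5%. Abl-only sites without FOXA1 lay nearer to LNCaP peaks, with a median of 26063 bp and 6.36% within 1 kb (5.60% to 7.19%). The most distant case, chrX:143057484-143057831, was 2785780 bp from any LNCaP CREB1 peak.

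Most of the sites stood apart from each other. Another such site lay within 10 kb of 8.03% of them (7.32% to 8.78%) and within 50 kb of 31.5%, and a shared CREB1 site lay within 10 kb of 16.6% (15.6% to 17.6%). The other classes had a site of this kind within 10 kb less often. The shares were 5.86% for abl-only sites without FOXA1, 5.98% for shared sites with FOXA1 and 4.82% for shared sites without it. Joined over gaps of up to 10 kb, 4973 abl-only sites with FOXA1 (92.0%) stood alone, 209 runs held 2 sites, 4 runs held 3 and 1 run held 4. That run of 4, chr7:27195307-27215330, had 5 FOXA1 peaks in 20024 bp, with no shared or LNCaP CREB1 peak. In windows of 1 Mb the sites occupied 1990 windows, and 8 windows with 10 or more sites held 1.68% of them. The densest were chr10:68000001-69000000 and chr12:12000001-13000000, each with 13 sites. The chromosome 10 window had only 2 shared CREB1 peaks beside 62 FOXA1 peaks, and the chromosome 12 window had 15 shared CREB1 peaks beside 75 FOXA1 peaks.

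FOXA1 peaks at the sites stood in slightly denser FOXA1 neighbourhoods than other FOXA1 peaks. Another FOXA1 peak lay within 10 kb, centre to centre, for 54.9% of the 5379 FOXA1 peaks that met abl-only but no shared CREB1 sites (53.5% to 56.2%). The share was 50% for FOXA1 peaks at shared CREB1 sites (48.9% to 51.1%) and 51.4% for those with no CREB1 peak (51.1% to 51.8%). Only 26 FOXA1 peaks met both an abl-only and a shared CREB1 site, and these were wide, with a median of 1342 bp.

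Relative to FOXA1 peaks, the sites varied less over the chromosomes than shared CREB1 sites did. Among the autosomes, the share of a chromosome's FOXA1 peaks that met an abl-only CREB1 site ran from 4.20% on chromosome 9 (3.50% to 5.00%) to 9.89% on chromosome 22 (7.93% to 12.1%). For shared sites the same measure ran from 6.11% on chromosome 13 to 32.9% on chromosome 19. Chromosome 19, where 7.82% of FOXA1 peaks met an abl-only site (6.16% to 9.76%), held 71 of the sites. There, 30.6% of 232 abl-only CREB1 peaks had FOXA1 (24.7% to 37.0%), and on chromosome 3 67.2% of 609 did (63.3% to 70.9%). Chromosome X was low for both kinds, with 2.22% of its FOXA1 peaks at abl-only sites (1.65% to 2.92%) and 3.11% at shared sites.

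**Figure D5:**
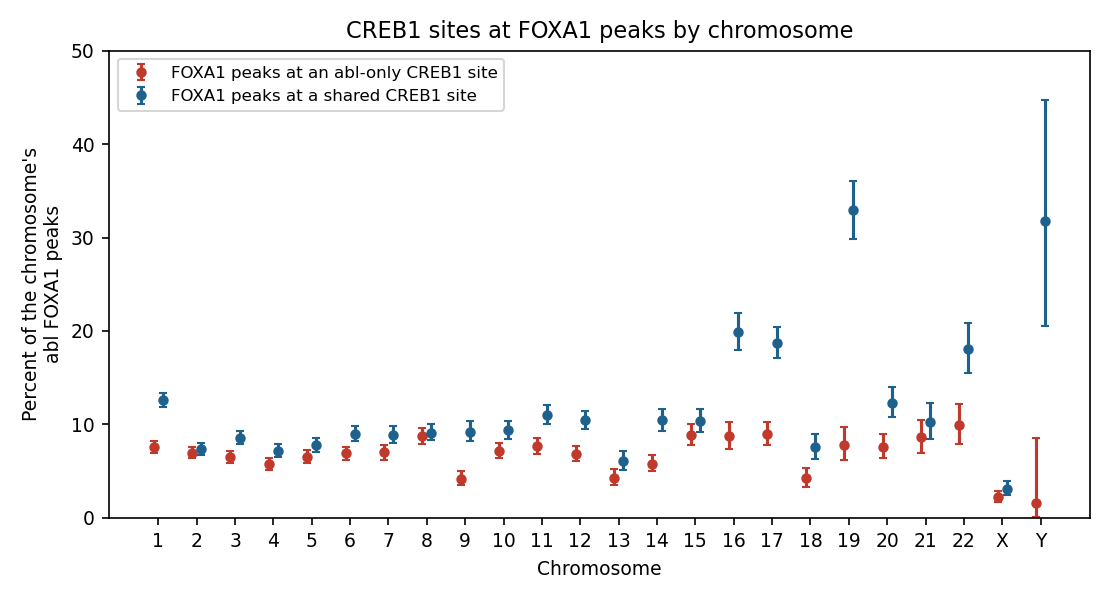
Percent of each chromosome's abl FOXA1 peaks that meet an abl-only CREB1 site (red) or a CREB1 site shared with LNCaP (blue), with exact 95% intervals for counting error. Abl-only sites stay between 4.20% and 9.89% on the autosomes, whereas shared sites reach 32.9% on chromosome 19; chromosome Y rests on 63 FOXA1 peaks.

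RNA of the 2 factors was compared between the lines in siControl cells, which were not the cells used for ChIP-seq. Reads assigned to genes ran from 9092597 to 37314039 per library, and 15550 of 23230 genes were tested. The lowest and the highest of these libraries were both abl siControl, the group used in every RNA comparison here. Levels are CPM, counts scaled to a common library size. CREB1 had 78.8 and 79.7 CPM in abl, against 81.0 and 85.3 CPM in LNCaP. The abl values were just under the LNCaP values, and the log2 difference of -0.07 ± 0.09 (SE) did not pass edgeR's test (adjusted p = 0.541). FOXA1 had 556 and 504 CPM in abl, against 799 and 695 CPM in LNCaP. Both abl libraries lay below both LNCaP libraries, and the log2 difference of -0.49 ± 0.08 passed the test (edgeR, adjusted p = 0.000129). Fewer cells expressing a gene and less RNA per cell cannot be told apart in such bulk samples. Over all tested genes, 63.6% differed between the lines at an adjusted p below 0.05, with 30.5% higher and 33.1% lower in abl.

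Of 19 tested members of the CREB/ATF family and its co-activators, 11 were higher and 2 lower in abl. Fewer were higher when either abl siControl library was left out. Over all tested genes, 30.5% were higher and 33.1% lower. The list's median log2 difference was 0.31, beside -0.02 over all tested genes. ATF4, the central factor of the integrated stress response, had 1337 and 1305 CPM in abl, against 237 and 249 CPM in LNCaP. CREB5, a CREB family member, had 0.50 and 0.446 CPM in abl, against 6.83 and 6.41 CPM in LNCaP. The log2 differences were 2.44 ± 0.06 for ATF4 (edgeR, adjusted p = 4.44e-13) and -3.75 ± 0.22 for CREB5 (adjusted p = 2.78e-09).

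Among 13 tested FOXA and luminal prostate factors, 4 were higher and 7 lower in abl, with a median of -0.28. This count and those of the lists below stand beside 30.5% higher and 33.1% lower over all tested genes. When single libraries were left out, the number of lower genes among the FOXA and luminal factors changed, to fewer or to more. ETV1, an ETS factor, had 0.306 and 0.111 CPM in abl, against 436 and 473 CPM in LNCaP. NFIB, a nuclear factor I protein, had 46.7 and 50.8 CPM in abl, against 95.1 and 92.5 CPM in LNCaP. Of 7 tested AP-1 genes, whose proteins are leucine-zipper factors as CREB1 is, 4 were higher and 1 lower (median 0.51), with JDP2 at 37.6 and 37.9 CPM in abl, against 11.9 and 12.2 CPM in LNCaP, and FOS at 3.44 and 2.79 CPM, against 1.16 and 1.03 CPM. Without the first abl siControl library 2 AP-1 genes were higher and 2 lower, and without the second LNCaP siControl library 3 were higher and 2 lower. Of 9 readers of acetylated histones, co-activators and Mediator subunits, 5 were higher and 2 lower (median 0.40). The steroid receptor co-activator NCOA2 had 275 and 274 CPM in abl, against 144 and 122 CPM in LNCaP, and the acetyl-lysine reader BRD3 had 68.2 and 60.4 CPM, against 139 and 127 CPM.

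Luminal prostate markers were present in both lines, with 10 markers summing to 2590 and 2316 CPM in abl, against 3818 and 3496 CPM in LNCaP. Of these, KLK3, the prostate-specific antigen gene, had only 0.361 and 0.111 CPM in abl, against 70.6 and 73.9 CPM in LNCaP. The 4 basal markers summed to at most 0.256 CPM in any siControl library, with TP63 at 0 in all 4. The 4 fibroblast markers summed to 10.4 and 12.1 CPM in abl, against 55.4 and 63.6 CPM in LNCaP, most of it COL1A1, with COL1A2 at 0. The 3 endothelial markers summed to 1.5 and 0.78 CPM in abl, against 31.4 and 28.7 CPM in LNCaP, where VWF made up most. The 4 neuroendocrine markers summed to 55.9 and 52.2 CPM in abl, against 106 and 106 CPM in LNCaP, nearly all of it ENO2. The 4 blood markers summed to 18.4 and 16.7 CPM in abl, against 11.2 and 9.29 CPM in LNCaP, most of it CD68. The part of these markers in the results was not tested.

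Both knockdowns in abl lowered their target. CREB1 had 46.3 and 43.9 CPM under siCREB1, against 78.8 and 79.7 CPM under siControl, a log2 difference of -0.81 ± 0.10 (edgeR, adjusted p = 9.1e-06). FOXA1 had 196 and 229 CPM under siFoxA1, against 556 and 504 CPM under siControl, a log2 difference of -1.32 ± 0.08 (edgeR, adjusted p = 2.04e-08). CREB1 also fell under siFoxA1, to 60.4 and 56.1 CPM, against 78.8 and 79.7 CPM under siControl, a log2 difference of -0.44 ± 0.09 (edgeR, adjusted p = 0.00114). FOXA1 under siCREB1 had 529.5 and 547 CPM, against 556 and 504 CPM under siControl, groups that overlapped, and did not pass (edgeR, adjusted p = 0.864). In CREB/ATF genes, 4 of 19 rose and 14 fell under siCREB1, where 51.2% of all tested genes were called, 27.5% as rises and 23.7% as falls. These 14 falls include CREB1 itself, the target of siCREB1. The list's median was -0.48, beside 0.03 over all tested genes. Under siFoxA1, 2 rose and 15 fell, where 56.5% of all tested genes were called, 29.9% as rises and 26.5% as falls. There the list's median was -0.51, beside 0.03 over all tested genes, and 1 gene in place of 2 rose without the first siControl library. Both comparisons use the same siControl libraries.

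ATF6, a sensor of protein folding stress, had 51.0 and 48.2 CPM under siCREB1, against 138 and 155 CPM under siControl. CREB5 had 1.26 and 1.30 CPM under siCREB1, against 0.50 and 0.446 CPM under siControl. Under siFoxA1, ATF4 had 373 and 382 CPM, against 1337 and 1305 CPM under siControl, and CREB3L2, a membrane-bound CREB family member, had 65.1 and 60.5 CPM, against 178 and 177 CPM. All 4 genes passed edgeR's test in these comparisons, CREB5 as a rise and the others as falls. All 9 acetyl-lysine readers, co-activators and Mediator genes fell under siFoxA1, where 26.5% of all tested genes fell. Among them, NCOA2 had 178 and 182 CPM, against 275 and 274 CPM under siControl. The smallest falls were BRD2, with a log2 difference of -0.17 ± 0.06 (edgeR, adjusted p = 0.0332), and MED1, with -0.19 ± 0.07 (adjusted p = 0.0274). With no filter on low counts, 8 of the 9 were called as falls. The list also did not pass in full when any single library of either group was left out. Under siCREB1, 4 of these 9 fell, where 23.7% of all tested genes did, among them the Mediator kinase module gene MED12, at 63.2 and 61.1 CPM, against 83.2 and 81.6 CPM under siControl.

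FOXA and luminal factors had 5 rises and 3 falls under siCREB1 and 2 rises and 7 falls under siFoxA1, of 13 tested. The 7 falls include FOXA1 itself, the target of siFoxA1. Over all tested genes 27.5% rose and 23.7% fell under siCREB1, and 29.9% rose and 26.5% fell under siFoxA1. Without the first siControl library 1 gene of this list in place of 3 fell under siCREB1. NFIB had 19.3 and 21.1 CPM under siCREB1, against 46.7 and 50.8 CPM under siControl, and ETV1, also called, was near 0 in both groups. SPDEF, an ETS factor of luminal epithelium, had 16.6 and 15.8 CPM under siFoxA1, against 87.3 and 63.9 CPM under siControl. Both siFoxA1 libraries lay below both siControl libraries.

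AP-1 genes had 3 rises and 1 fall of 7 under siCREB1, and 1 rise and 1 fall under siFoxA1, beside those same shares over all tested genes. JUN had 208 and 196 CPM under siCREB1, against 123 and 90.2 CPM under siControl, and JDP2 had 22.9 and 22.0 CPM, against 37.6 and 37.9 CPM. Only 2 AP-1 genes passed under siCREB1 with DESeq2, without the second siControl library or without the first siCREB1 library. Under siFoxA1, 2 AP-1 genes in place of 1 rose without the first siControl or without the second siFoxA1 library. Which genes lie near the CREB1 sites was not analysed here, so these RNA changes are not tied to single sites.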

How the data were processed

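ChIP-seq peak lists and RNA-seq counts were used as deposited. Each peak list holds positions on hg19 and a score per peak given by the authors. Per the submitters' processing notes, Bowtie 1.0.0 and MACS 1.4.2 are named for the series. The input control and any pooling of libraries are not given in the sources used here, and the scale of the score is not stated. The authors deposited raw read counts per gene. HTSeq 0.5.3p9, TopHat2 2.0.8, Bowtie2 2.1.0 and CASAVA 1.8 also appear in the submitters' processing notes. The library kit does not mark strand, so overlapping genes are uncertain. Lines that name no gene were left out, and between 54.8% and 58.3% of a library's reads fell in no feature. Column names with SIC were read as siControl, and the 8 repeated control columns were identical.

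Overlaps needed 1 bp or more. Where a CREB1 peak met several FOXA1 peaks, the one with most shared bp was used. Centres are peak midpoints, since no summits were used. Bands of CREB1 score were chosen after the scores were seen. The members and lists were chosen with earlier results of these data known. Neither sequence nor gene annotation on hg19 was used here, so motifs, gene positions and the RNA of genes near the sites were not analysed.

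All 12 RNA libraries, as 6 groups of 2, entered 1 edgeR 4.0.16 quasi-likelihood fit in R 4.3.3, with TMM scaling, filterByExpr and Benjamini-Hochberg adjustment over 15550 genes. A gene was called at an adjusted p below 0.05. Nothing says that the 2 libraries of a group came from separate cultures. The p-values thus measure only the spread between libraries within groups, estimated over all 6 groups together and with information shared across genes. The SE is the absolute log2 change over the square root of the F statistic. The fit was also run on simulated counts that had the same spread for every gene. No result given here rests on that run. Named sites are the 8 with the highest CREB1 score. Named genes are CREB1, FOXA1 and, for lists with 3 or more called genes, the 2 called genes that changed most, of which some are not reported here; the markers and the sites with extreme FOXA1 scores, extreme distance or at the rule's edges were added. Alternatives were other overlap rules, score thresholds, DESeq2 1.42.0, no filter, a replicate block, fewer libraries and each library left out.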

Additional observations from a re-analysis of the deposited data

How the results depend on the processing

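Each of 7 peak measures was recomputed under 8 alternatives, and the abl-only share with FOXA1 stayed above the shared one under all 8. The number of sites was 3449 when abl CREB1 peaks needed a score of 100 or more and 2917 when the abl list was limited to the length of the LNCaP list, which was chosen after seeing the data as was a score of 100 in both lines; both alternatives drop weak peaks. The share of abl-only CREB1 peaks with FOXA1 was 57.1% with FOXA1 over at least 50% of the CREB1 peak, 57.1% with the CREB1 centre inside the FOXA1 peak and 55.4% with FOXA1 scores of 100 or more. For shared CREB1 peaks these were 34.9%, 36.8% and 37.8%, then 40.6% with LNCaP scores of 100 or more, 40.2% with 100 or more in both lines and 41.2% with lists of equal length. The median CREB1 score of the sites was 132 with abl scores of 100 or more, 114 with LNCaP scores of 100 or more, 135 with both and 140 with equal length. The median CREB1 width was 567 bp, 567 bp and 575 bp with abl scores of 100 or more, with both lines and with equal length. The median FOXA1 score was 466 with abl CREB1 scores of 100 or more, 466 with both lines and 483 with FOXA1 scores of 100 or more. The median centre distance stayed within its 95% interval of 61.5 to 66.0 bp under all 8.

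Of 168 RNA values recomputed, 164 kept their call or stayed within 1.5 times. The AP-1 count under siCREB1 was 2 with DESeq2, and 2 to 4 with single libraries left out. FOXA1 under siCREB1, not called, had log2 differences of -0.047 (without the second siControl library) to 0.11 with single libraries left out, and the cause was not tested. With a replicate block on the library number, FOXA1 in abl against LNCaP was -0.49 and 10002 genes were called, against 9896 without it. No call of a factor list moved by over 1.5 times with the block. The numbers are not known to pair libraries. Deviations of same-numbered libraries correlated from -0.047 to 0.23 between groups, highest for abl siControl with LNCaP siControl. Comparisons of genes near the sites, sequence content and gene position, with their alternatives, were not run, since no annotation or genome on hg19 was used. ChIP-seq depth is unknown and RNA groups hold 2 libraries.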
